A study of Homo sapiens with 6 samples.

Results

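The genes described here are 10 markers of the mesenchymal state: the transcription factors SNAI1, SNAI2, TWIST1, ZEB1 and ZEB2, the intermediate filament gene VIM, and the matrix genes FN1, TNC, SPARC and THBS1. They were chosen by name, without a threshold on their values, and were found in the table of 16922 genes by their Ensembl identifiers. TWIST1 was not analysed here, which left 9 genes, 4 of them transcription factors and 5 of them filament or matrix genes. Their RNA was compared between 3 libraries of 786-O, a VHL-mutant line of human clear cell renal cell carcinoma with the parental FOXD1 genotype, and 3 libraries of 786-OFOXD1null, the line derived from it with the genotype given as FOXD1 null. No treatment is named for either line, and RNA was taken from plates at 70% confluency. The sources used here give neither the altered FOXD1 allele nor whether FOXD1null is a single clone, and an effect of FOXD1 and a difference between 2 separately grown lines cannot be told apart. The RNA extracts are described as biological triplicates, but separate cultures or dates are not given, so that the p-values rest on a spread between libraries that could be technical.

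In the epithelial to mesenchymal transition, cells lose the junctions and polarity of an epithelium and take on the filaments, matrix and motility of mesenchymal cells. The zinc finger repressors of the SNAI and ZEB families bind E-box sequences in promoters of epithelial genes, of which the E-cadherin gene CDH1 is the best known. Vimentin, the product of VIM, forms the intermediate filaments of mesenchymal cells, and fibronectin, tenascin-C, SPARC and thrombospondin-1, the products of FN1, TNC, SPARC and THBS1, are secreted into the matrix, where all but fibronectin are counted as matricellular proteins, which change how cells attach more than they build structure. Clear cell renal cell carcinomas arise from an epithelium but commonly carry vimentin. In bulk RNA, fewer cells with a transcript and less of it in each cell cannot be told apart.

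The 6 libraries held between 30982463 and 37843830 reads in genes. FOXD1, which encodes the forkhead factor named in the label, was itself higher in FOXD1null, with normalized counts (reads divided by 1 size factor per library) of 432, 498 and 480 against 1277, 1048 and 901, so the RNA level does not identify the altered line as lacking this transcript. All 9 renal carcinoma markers were in the table, with summed counts of 55674 to 56848 in 786-O and 53070 to 76285 in FOXD1null. Among them PAX8 lay between 6518 and 8076 in every library and was somewhat higher in FOXD1null. CA12, VCAM1, VEGFA and EPAS1 were higher in each FOXD1null library, EPAS1 only slightly in replicate 1 (4611 against 4432 to 4561 in 786-O). CDH6 (25953 to 27838 against 6431 to 8359), LHX1 and PAX2 were lower in each, and NDUFA4L2 overlapped between the lines. None of 6 endothelial markers was in the table. The summed counts of 5 cardiomyocyte markers were 4685 in 786-O replicate 2 and 412 in FOXD1null replicate 1 but at most 58.9 in the other 4 libraries, and FOXD1null replicate 1 correlated less with FOXD1null replicates 2 and 3 (Pearson's r = 0.982 and 0.981 across genes, which are not independent) than these did with each other (0.994). The part of these features in the results was not tested, and results are given with and without FOXD1null replicate 1 where leaving it out changes a call or a count of calls.

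Promoter sequences are shown for the 3 genes that changed most, and 30 bases around an E-box for ZEB1, since an antisense gene has the same site. The motifs were searched in the 250 bases before each RefSeq transcription start (GRCh38.p14), and RefSeq windows matched 7 of the 9 genes. Sequences are written in the direction of the gene, in lower case with matches to the searched motifs in capitals. The windows of FN1, TNC and THBS1 are left off where GENCODE begins the gene. The ZEB1 stretch instead lies inside the spans that GENCODE gives to ZEB1, which begins at chr10:31318495, and to ZEB1-AS1.
FN1, chr2:215436074-215436318, minus strand: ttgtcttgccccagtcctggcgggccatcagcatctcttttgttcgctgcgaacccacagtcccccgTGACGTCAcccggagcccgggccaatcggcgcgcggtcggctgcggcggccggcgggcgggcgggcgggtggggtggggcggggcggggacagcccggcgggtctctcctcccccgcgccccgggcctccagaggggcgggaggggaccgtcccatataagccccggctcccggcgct
TNC, chr9:115118208-115118407, minus strand: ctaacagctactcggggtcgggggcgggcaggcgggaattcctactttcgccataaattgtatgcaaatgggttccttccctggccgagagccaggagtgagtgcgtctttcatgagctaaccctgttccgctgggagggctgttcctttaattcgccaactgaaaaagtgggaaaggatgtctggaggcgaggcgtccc
THBS1, chr15:39580829-39581078, plus strand: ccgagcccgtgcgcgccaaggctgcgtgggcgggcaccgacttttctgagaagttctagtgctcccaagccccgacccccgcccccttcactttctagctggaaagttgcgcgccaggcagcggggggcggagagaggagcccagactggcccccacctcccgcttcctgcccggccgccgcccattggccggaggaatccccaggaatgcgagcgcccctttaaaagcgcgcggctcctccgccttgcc
ZEB1, chr10:31319119-31319148, plus strand: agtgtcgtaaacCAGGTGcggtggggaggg

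The capitals in the FN1 window are TGACGTCA, the cyclic AMP response element, which lay 183 bases before the start and is held by 1.65% of all 35116 RefSeq windows of this length. In the ZEB1 stretch they are the E-box CACCTG, written CAGGTG on this strand, 85 bases before a RefSeq start at the end of the window chr10:31318966-31319215, which held another E-box 242 bases before the start. This motif, on either strand, is held by 17.5% of all windows. The ZEB1 gene has 7 RefSeq windows, of which 1 other held an E-box, 57 bases before its start. No member window held the forkhead consensus GTAAACA (or TGTTTAC, 2.98% of all windows), the AP-1 motif TGAGTCA (or TGACTCA, 4.20%) or the TATA box TATAAA (or TTTATA, 10.7%), and the windows of TNC, THBS1, VIM, SPARC and ZEB2 held none of the 5 motifs. The response element, the AP-1 motif and the TATA box were added to the search after the fold changes were known. A match describes letters and not binding, and its absence says only that these letters are not in these 250 bases. The share of G and C was 76.4% in the FN1 window, 69.6% in that of THBS1, 54.8% in that of TNC and 46% in that of VIM, against a median of 58% over all windows.

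The markers did not move as a block. VIM, FN1 and TNC were higher in FOXD1null, SNAI1 and THBS1 were lower, and SNAI2, ZEB1, ZEB2 and SPARC did not pass the test (limma with Benjamini-Hochberg adjustment over 16901 genes, called at an adjusted p of 0.05). Of all genes tested, 16.3% were called higher and 17.1% lower, against 3 and 2 of the 9 genes here. The groups did not overlap for 6 of the 9, against 49.0% of all genes tested. The median log2 fold change was 0.19 over the 9 genes and -0.01 over all genes. Without FOXD1null replicate 1, all 9 were called, 6 higher and 3 lower, beside 27.4% and 27.6% of all genes, and the median over the 9 was 0.33. Scaling the libraries to equal totals shifted the median of all genes by -0.09, and under it no gene of the 9 changed its direction or its call.

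**Figure D1:**
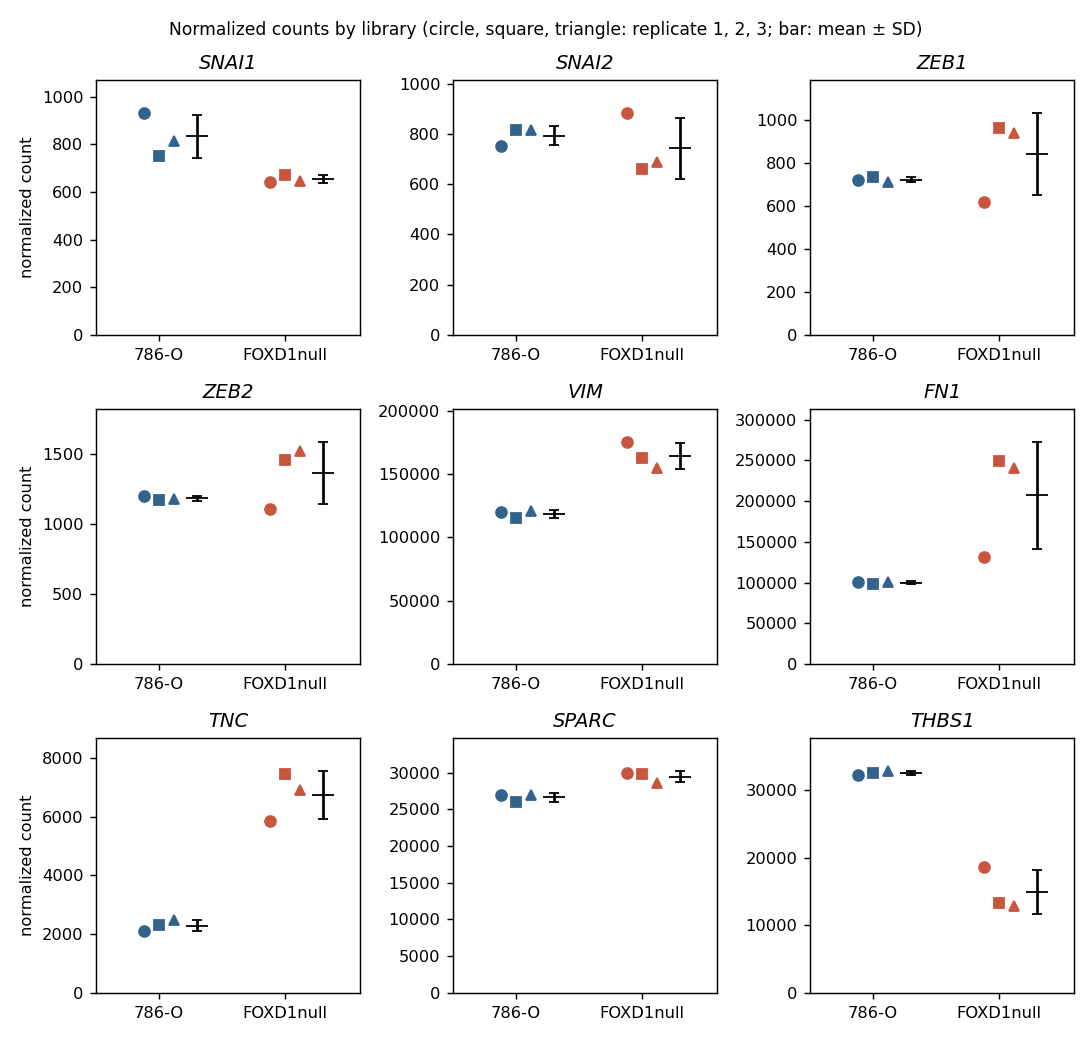
Normalized counts of the 9 genes (vertical axes, each from 0) in the 3 libraries of 786-O and the 3 of FOXD1null, with the mean and SD of each group as bars and the replicate number as the shape of the point. TNC and THBS1 separate the lines in opposite directions, whereas for ZEB1, ZEB2 and FN1 the circle of FOXD1null replicate 1 lies well below the other points of its line.

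**Figure D2:**
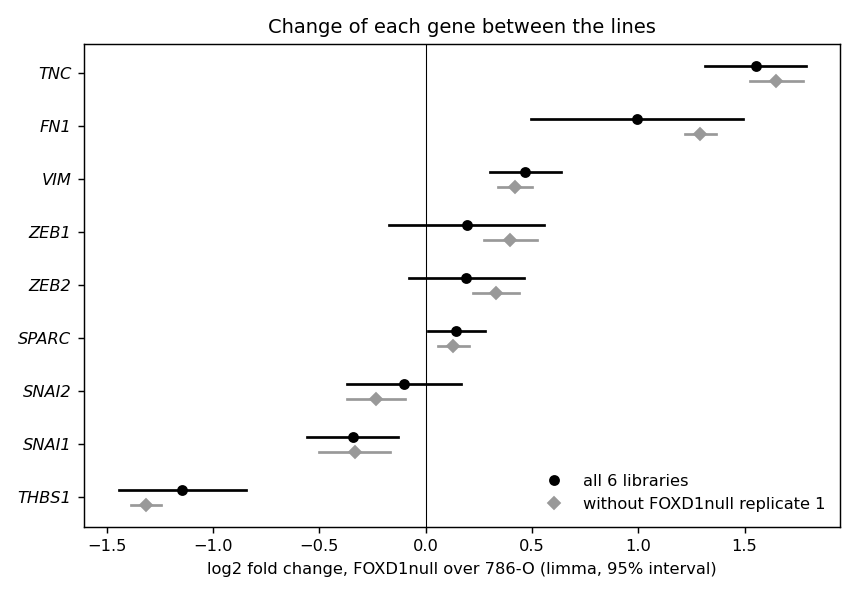
Log2 fold change of FOXD1null over 786-O for the 9 genes (horizontal axis) with the unadjusted 95% interval from limma, for all 6 libraries (black) and without FOXD1null replicate 1 (gray). TNC at 1.55 and THBS1 at -1.14 are the ends of the range, and the intervals of SNAI2, ZEB1 and ZEB2 cross 0 when all 6 libraries are used.

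Among the transcription factors, SNAI1, the Snail repressor, was the only one called with all libraries, and it was lower in FOXD1null. The gene (ENSG00000124216, chr20:49982980-49988886 of hg38, plus strand) had 932, 753 and 816 normalized counts across 786-O against 645, 673 and 645 in FOXD1null. All values of FOXD1null lay below those of 786-O, whose replicate 1 was the highest. The means were 834 ± 90.6 and 654 ± 16.3 (SD, n = 3 libraries each), a log2 fold change of -0.34 with a standard error of 0.09 (limma, adjusted p = 0.022). The call did not hold in 4 of the 6 fits that left out 1 library. The log2 fold change and adjusted p were -0.26 and 0.089 without 786-O replicate 1, -0.36 and 0.072 without its replicate 3, -0.36 and 0.054 without FOXD1null replicate 2, and -0.33 and 0.062 without its replicate 3.

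SNAI2, the Slug repressor (ENSG00000019549, chr8:48917598-48921740, minus strand), had counts of 750, 814 and 814 in 786-O and 883, 661 and 688 in FOXD1null. FOXD1null replicate 1 was the highest of all 6 libraries and replicates 2 and 3 were the lowest, so that the groups overlapped. With all libraries the log2 fold change was -0.10, with a 95% interval of -0.37 to 0.16 (adjusted p = 0.54 from limma). Leaving out FOXD1null replicate 1 moved it to -0.23 (interval -0.37 to -0.10, adjusted p = 0.0059).

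ZEB1 and ZEB2, the homologous ZEB repressors, both had higher means in FOXD1null, but neither passed the test with all libraries. For ZEB1 (ENSG00000148516, chr10:31318495-31529814, plus strand) the 786-O values were 723, 735 and 712 and the FOXD1null values 622, 963 and 943. ZEB2 (ENSG00000169554, chr2:144364364-144521057, minus strand) had 1202, 1170 and 1178 in 786-O and 1109, 1459 and 1522 in FOXD1null. In each gene, FOXD1null replicate 1 lay below all 3 libraries of 786-O while replicates 2 and 3 lay above them.

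The log2 fold change of ZEB1 was 0.19 (standard error 0.16, limma adjusted p = 0.39), and that of ZEB2 was 0.19 (standard error 0.12, limma adjusted p = 0.26). Without FOXD1null replicate 1 they were 0.40 for ZEB1 (adjusted p = 2.7e-05) and 0.33 for ZEB2 (adjusted p = 4.0e-05). The call for the ZEB genes and for SNAI2 therefore turned on 1 library. The correction for multiple testing over all genes, and not over the list, was used throughout.

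VIM was the most abundant of the 9 genes and rose in FOXD1null. It lies on the plus strand at chr10:17228241-17237593 (ENSG00000026025), and it reached 120114, 115124 and 120950 counts in 786-O against 175378, 162857 and 155138 in FOXD1null. The lowest FOXD1null library stood well above the highest of 786-O, and replicate 1 was here the highest of its line. The means of 118729 ± 3150 and 164458 ± 10214 (SD, n = 3 each) gave a log2 fold change of 0.47, with a standard error of 0.07 and an adjusted p of 0.0019 from limma. VIM passed under every alternative tried, with adjusted p between 7.8e-10 and 0.016.

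Fibronectin RNA rose in all FOXD1null libraries, but to very unequal heights. FN1 (ENSG00000115414, chr2:215360440-215436073, minus strand) had counts of 101098, 98161 and 100892 in 786-O against 131796, 248829 and 241071 in FOXD1null. FOXD1null replicate 1 lay above 786-O yet far nearer to it than to the other libraries of its own line. The fold change on the log2 scale was 0.99 with a 95% interval of 0.50 to 1.49 (limma, adjusted p = 0.0090), and it was 1.29 with an interval of 1.22 to 1.37 without that library. The ratio of the group means was 2.07. FN1 was called under every alternative, with the largest adjusted p at 0.04.

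TNC, which encodes tenascin-C, a matricellular protein known from wound edges and tumor stroma, had the largest change of the 9 genes. Its locus is chr9:115019575-115118207 on the minus strand (ENSG00000041982). Counts of 2091, 2307 and 2479 in 786-O stood against 5851, 7456 and 6916 in FOXD1null, with a wide gap between the lines and FOXD1null replicate 1 on the same side as the others. The mean rose from 2293 ± 194 to 6741 ± 817 (SD, n = 3 each), 2.94 times as much. On the log2 scale this was a fold change of 1.55 with a standard error of 0.10 (limma adjusted p = 5.0e-05), and the largest adjusted p under any alternative was 8.5e-04.

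SPARC, a collagen-binding matricellular protein, was high in both lines and differed little. Its gene (ENSG00000113140, chr5:151661096-151686975, minus strand) had 26968, 25966 and 26977 counts in 786-O and 29992, 29795 and 28536 in FOXD1null. The groups did not overlap, and the gap between them was about as wide as the range within FOXD1null. Over all libraries the log2 fold change was 0.14 (standard error 0.06) and did not pass (adjusted p = 0.096 from limma), although its unadjusted 95% interval ran from 0.01 to 0.28. It was 0.13 without FOXD1null replicate 1, where it passed at 0.0050, and 0.05 with equal library totals, where it did not at 0.48.

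THBS1 ran against FN1 and TNC. Thrombospondin-1, its product, is a large matricellular glycoprotein known as an inhibitor of angiogenesis and as an activator of latent TGF-beta. The gene (ENSG00000137801, chr15:39581079-39599466, plus strand) had 32320, 32555 and 32900 counts in 786-O and 18651, 13320 and 12886 in FOXD1null. The 786-O libraries were nearly equal, and every FOXD1null library was far below them, with replicate 1 the least reduced. The mean fell from 32591 ± 292 to 14952 ± 3210 (SD, n = 3 each), a ratio of 0.459. Limma gave a log2 fold change of -1.14 with a standard error of 0.13 (adjusted p = 4.6e-04) and a value of -1.31 without FOXD1null replicate 1, and the call held under every alternative, with adjusted p up to 0.0049.

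The position of FOXD1null replicate 1 differed from gene to gene. On a log2 scale where 0 is the mean of 786-O and 1 the mean of FOXD1null replicates 2 and 3, it stood at 1.34 for VIM, 1.31 for SPARC and 1.09 for SNAI1, that is at or beyond its own line. It stood at 0.82 for TNC, 0.61 for THBS1 and 0.31 for FN1, between the lines. It stood at -0.28 for ZEB2, -0.55 for ZEB1 and -0.67 for SNAI2, on the far side of 786-O. For the 1739 genes that changed at least 2-fold and were called without this library, the median position was 0.661, with quartiles at 0.456 and 0.873. The library thus lay between the lines for most strongly changed genes, and the 3 factors stood below the lower quartile, as did FN1, although the changes of these factors were smaller than those of the genes it was taken from. Replicates 2 and 3 served both to select these genes and to set position 1. This choice by itself favors positions below 1 for the library left out.

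Levels of different genes were set side by side as RPKM, reads scaled by the kilobases of a gene's merged exons and by the library's total, and on this scale VIM stood far above the rest. In 786-O the mean levels were 664 for VIM, 168 ± 1.58 for FN1, 166 ± 2.35 for SPARC and 103 ± 0.932 for THBS1 (SD, n = 3). The transcription factors lay lower, at 14.2 ± 1.49 for SNAI1, 7.00 ± 0.341 for SNAI2, 2.42 ± 0.0603 for ZEB1 and 1.31 ± 0.0176 for ZEB2, with TNC at 6.92 ± 0.568. FN1 and SPARC, and likewise SNAI2 and TNC, did not differ beyond their spread in 786-O on merged exons.

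In FOXD1null the order of the matrix genes opened up. The level of FN1 was 207 in replicate 1 and 391 and 385 in replicates 2 and 3, above SPARC at 173 ± 2.83 in each library. THBS1 dropped to 44.3 ± 9.22 and TNC reached 19.1 ± 2.36, which placed TNC above SNAI1 at 10.4 ± 0.232 and SNAI2 at 6.16 ± 0.971. Among 16747 genes ranked by level, FN1 moved from place 160 to 69, TNC from 5685 to 2387 and THBS1 from 321 to 940, while VIM stayed near the top at 28 and 25. VIM alone took 0.344% of all reads in 786-O and 0.447% in FOXD1null, and FN1 0.290% and 0.564%. The order of close levels depended on the gene length used. With the length of the longest transcript, 786-O levels were 316 for FN1 and 224 for SPARC, 8.12 for SNAI2 and 7.81 for TNC, and 3.58 for ZEB2 against 3.35 for ZEB1, so that FN1 then lay above SPARC and ZEB2 above ZEB1.

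**Figure D3:**
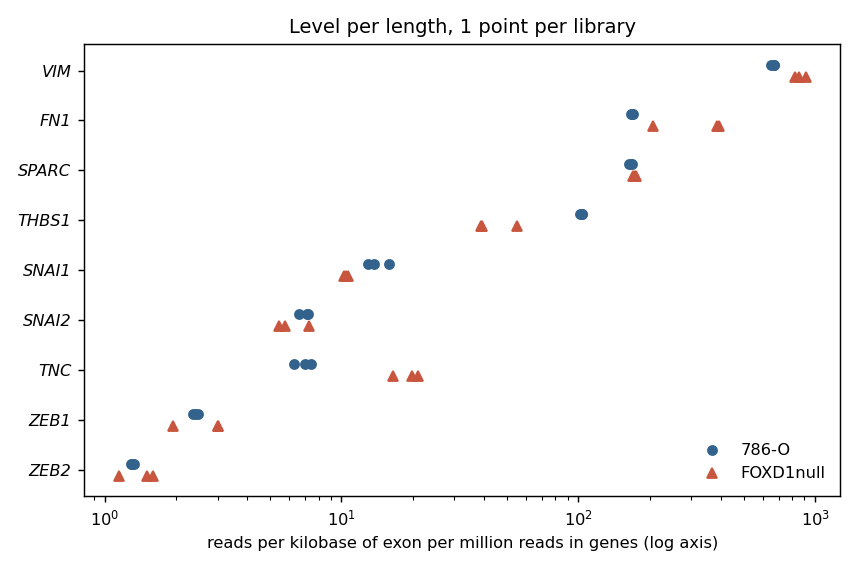
Level of each gene per library, as RPKM (reads scaled by kilobases of merged exons and by library total) on a log axis, for 786-O (circles) and FOXD1null (triangles). VIM is the highest at means of 664 and 863, the ZEB genes are the lowest, and the points separate by line for TNC and THBS1.

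Ratios of related genes within a library do not depend on how libraries are scaled. The log2 ratio of FN1 to THBS1 was 1.65, 1.59 and 1.62 in 786-O and 2.82, 4.22 and 4.23 in FOXD1null, so that both lines had more reads of FN1 and the excess was larger in every FOXD1null library. The ratio of TNC to SPARC rose likewise, from -3.69, -3.49 and -3.44 to -2.36, -2.0 and -2.04. In the factor families the balance was closer: ZEB1 to ZEB2 gave -0.73, -0.67 and -0.73 against -0.83, -0.60 and -0.69, and the means were -0.71 in both lines.

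The ratio of SNAI2 to SNAI1 had values of -0.31, 0.11 and 0.00 in 786-O and 0.45, -0.03 and 0.09 in FOXD1null, which overlapped. FOXD1null replicate 1, whose ZEB1 and ZEB2 counts were both the lowest of the 6 libraries, had the lowest ZEB1 to ZEB2 ratio as well, though close to those of 786-O. No test was applied to these ratios.

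**Figure D4:**
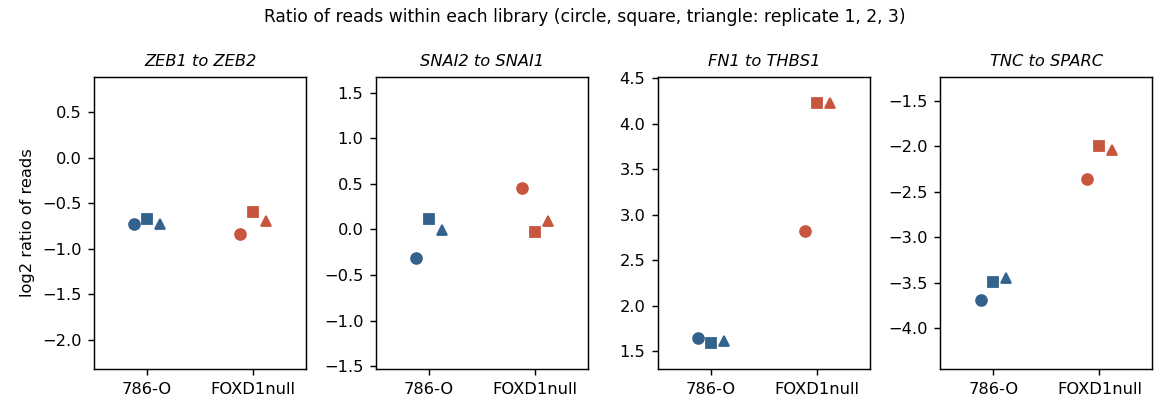
Log2 ratio of reads of 2 genes within each library (vertical axes of equal span but different centers), with the replicate number as the shape of the point. The ratios of FN1 to THBS1 and of TNC to SPARC separate the lines, and those of ZEB1 to ZEB2 and of SNAI2 to SNAI1 overlap.

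Genes on the opposite strand or within a member's span were counted beside VIM, ZEB1 and THBS1. The sources used here name no strand setting for the counting, and reads of such a pair cannot be told apart where their exons overlap, and their values are not independent of the member's. VIM-AS1 (chr10:17214239-17230018, minus strand), with 656 of its 2126 exonic bases over exons of VIM, had 103, 103 and 82.8 counts in 786-O and 155, 124 and 126 in FOXD1null. It passed at a log2 fold change of 0.49 (limma adjusted p = 0.039), close to the 0.47 of VIM, but not with equal library totals (adjusted p = 0.078) nor in 5 of the 6 fits that left out 1 library (adjusted p up to 0.14).

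ZEB1-AS1 (chr10:31206278-31320447, minus strand), which starts 1952 bases from ZEB1, had 182, 154 and 155 counts in 786-O and 174, 290 and 266 in FOXD1null. As for ZEB1, FOXD1null replicate 1 stood apart from the other libraries of its line, which lay above all of 786-O. FOXD1null replicate 1 fell among the 786-O values here, whereas for ZEB1 it lay below them. The log2 fold change was 0.54 (limma adjusted p = 0.063), and 0.77 without that library (adjusted p = 2.9e-05), while DESeq2 called it with all libraries at 0.58 (adjusted p = 0.023). Exons overlapped over 396 of its 3862 bases. The E-box printed for ZEB1, at 85 bases before its start, is the same site, 31319131 to 31319136, as the E-box 41 bases before a ZEB1-AS1 start on the other strand, and the 2 windows share 120 bases.

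At THBS1, both short genes within its span were low and fell with it. THBS1-AS1 (chr15:39588357-39588882, minus strand), 411 of whose 526 exonic bases lie over THBS1 exons, had 31.2, 22.7 and 17.5 counts in 786-O and 5.39, 7.07 and 4.86 in FOXD1null (log2 fold change -1.85, limma adjusted p = 0.0051). THBS1-IT1 (chr15:39586561-39587293, plus strand) overlaps no THBS1 exon but lies within the THBS1 span on the same strand. Reads of unspliced THBS1 RNA there cannot be told apart from its own. THBS1-IT1 had 15.6, 19.0 and 20.2 against 6.47, 1.01 and 3.88 (log2 fold change -2.20, limma adjusted p = 0.014). It did not pass without 786-O replicate 2 (adjusted p = 0.055) or 3 (adjusted p = 0.067). Neither pair of groups overlapped, on counts of at most 31.2.

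The genes around each member mostly did not share its change. For the other tested genes that start within 1 Mb, the median log2 fold change was -0.02 over 14 genes around FN1, -0.19 over 5 around TNC and 0.05 over 14 around SPARC. Around the factors it was -0.09 over 30 genes at SNAI1, 0.19 over 6 at SNAI2, 0.05 over 8 at ZEB1 and 0.08 over 2 at ZEB2. TNC thus rose among neighbors that were slightly lower, as was its chromosome (median -0.15 over 673 genes). The neighbors counted at THBS1 include THBS1-AS1 and THBS1-IT1, both called lower, and those at VIM include VIM-AS1, called higher. Those at ZEB1 include ZEB1-AS1, which was not called. These genes share bases with their member, so they are not independent neighbors. VIM and THBS1 had neighbors that leaned the same way: 0.17 over 11 genes at VIM, which became 0.03 over 45 genes within 5 Mb, and -0.27 over 20 genes at THBS1, of which 10 were called lower and 1 higher, against 17.1% and 16.3% of all genes. At THBS1 the median was -0.24 over 102 genes within 5 Mb, 41 of them called lower and 6 higher, and -0.18 over 554 genes of chromosome 15, all smaller than the -1.14 of THBS1.

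The related lists are read against the shares called among all genes, 16.3% higher and 17.1% lower, or 27.4% and 27.6% without FOXD1null replicate 1, and no test compared a list with other genes. Of 24 other factors of the transition, 19 were tested, with 5 called higher (26.3%), 5 lower (26.3%) and 9 not called, and their median log2 fold change was 0.11. Without FOXD1null replicate 1 the counts were 6 and 7, and the lower count ranged down to 3 over the single leave-outs. ID3 and ID1, which encode inhibitors of basic helix-loop-helix factors, fell. ID3 had 8592, 8273 and 8435 counts in 786-O and 5448, 3483 and 3257 in FOXD1null (log2 fold change -1.09, limma adjusted p = 0.0020), and ID1 changed by -0.78 (adjusted p = 0.0016). SOX9, a progenitor and kidney injury factor, rose from 491, 608 and 513 to 954, 868 and 866 (0.74, adjusted p = 0.0010). TCF3, the E-protein that ID proteins bind, was the most abundant gene of the list that was not called, at 0.11 (adjusted p = 0.22).

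Of 25 partners and turnover genes of the SNAI and ZEB proteins, 5 were called higher (20%), 4 lower (16%) and 16 not, at a median of -0.02, shares near the 16.3% and 17.1% of all genes. The higher calls numbered 9 without FOXD1null replicate 1, 0 without 786-O replicate 1 or replicate 3, and 1 with equal library totals. COPS2, a COP9 signalosome subunit, changed by -0.46 (limma adjusted p = 0.0032), the acetyltransferase gene EP300 by -0.45 (adjusted p = 0.028) and FBXO45, an F-box gene, by 0.29 (adjusted p = 0.010). EP300 did not pass without 786-O replicate 1 or 3 (adjusted p = 0.099 and 0.106), nor did FBXO45 (0.058 and 0.052), and EP300 was at -0.30 without FOXD1null replicate 1. LOXL2, a lysyl oxidase that binds Snail, was the most abundant gene not called, at 0.02 (adjusted p = 0.94) with all libraries and 0.16 without FOXD1null replicate 1 (adjusted p = 0.0045).

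Of 24 epithelial genes and their guardians tested, 5 were called higher, 5 lower (20.8% each, against 16.3% and 17.1% of all genes) and 14 not. The lower count ranged from 2 without 786-O replicate 2 to 8 without FOXD1null replicate 1. The tight junction gene CLDN1 rose from 1056, 1492 and 1323 counts in 786-O to 5277, 6432 and 6569 in FOXD1null (log2 fold change 2.25, limma adjusted p = 3.4e-05), and SPINT2, a protease inhibitor of epithelia, rose by 1.16 (adjusted p = 2.8e-05). The polarity gene CRB3 fell from 489, 467 and 409 to 191, 120 and 133 (-1.64, adjusted p = 3.3e-04). KRT8, a keratin of simple epithelia and the most abundant gene not called, had 18931, 18758 and 18633 in 786-O and 24187, 17217 and 16213 in FOXD1null, with replicate 1 above and the other libraries below 786-O. Its log2 fold change was 0.01 with all libraries (adjusted p = 0.97) and -0.17 without FOXD1null replicate 1 (adjusted p = 8.2e-04).

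The classical cadherins were named after their values had been seen. CDH1 was near the floor of detection in both lines, at 10.0, 57.1 and 5.52 counts in 786-O and 5.39, 0 and 0 in FOXD1null. It passed in limma at an adjusted p of 0.047 but not in DESeq2 (adjusted p = 0.12), in edgeR (0.051), at a pseudocount of 10 (0.091) or in 5 of the 6 fits that left out 1 library (0.052 to 0.18). The highest value was in 786-O replicate 2, which also held 1169.5 summed counts of intestinal carcinoma markers against at most 102 in the others, and their part in it was not tested. CDH2, the N-cadherin gene of mesenchymal cells, was abundant and rose, from 11720, 11880 and 11865 to 13898, 16480 and 16208 (log2 fold change 0.39, standard error 0.08, limma adjusted p = 0.0058).

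Of 27 mesenchymal genes outside the 9, 8 were called higher (29.6%, against 16.3% of all genes), 10 lower (37%, against 17.1%) and 9 not, and the median was -0.13. Without FOXD1null replicate 1, 10 were higher and 12 lower. NT5E, the surface nucleotidase CD73, rose from 701, 967 and 901 to 2685, 3489 and 3667 (log2 fold change 1.94, limma adjusted p = 9.0e-05). The fibrillar collagen gene COL5A2 fell from 363, 330 and 360 to 128, 78.8 and 102 (-1.78, adjusted p = 2.2e-04). CDH11, a mesenchymal cadherin, had 675, 646 and 702 in 786-O and 155, 1.01 and 0.971 in FOXD1null, where replicate 1 kept a clear level that the other libraries lacked. Limma called it (adjusted p = 0.012) and DESeq2 did not (adjusted p = 0.107). The tropomyosin gene TPM1, the most abundant not called, lay at the threshold (-0.28, adjusted p = 0.0502) and passed by DESeq2 (adjusted p = 0.031) and without FOXD1null replicate 1 (-0.38, adjusted p = 9.9e-08). Summed fibroblast markers, 5 of 9 in the table, were 764 to 907 in 786-O and 291 to 455 in FOXD1null, with COL1A1 the largest. These 5 are themselves among the 27 genes counted here, so they are not a separate measure.

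The matricellular and fibronectin-associated list had 3 genes called higher (16.7%, against 16.3% of all genes), 7 lower (38.9%, against 17.1%) and 8 not of 18 tested, with a median of -0.23. Without FOXD1null replicate 1 the counts were 5 and 10. TGM2, the transglutaminase that crosslinks fibronectin, rose from 8444, 9324 and 9096 counts to 23704, 31342 and 29225 (log2 fold change 1.64, limma adjusted p = 4.2e-05). LTBP1, which tethers latent TGF-beta to fibronectin and fibrillin, rose from 56.9, 77.1 and 82.8 to 323, 673 and 621 (2.83, adjusted p = 2.3e-04). SPOCK1, a relative of SPARC, fell from 7543, 7058 and 7441 to 2408, 2096 and 1933 (-1.78, adjusted p = 2.5e-05), and FSTL1, another relative, was the most abundant gene not called (0.02, adjusted p = 0.85).

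Among the receptors of these matrix proteins, 6 of 17 were called higher (35.3%, against 16.3% of all genes), 4 lower (23.5%, against 17.1%) and 7 not, at a median of 0.06. The higher count was 8 without FOXD1null replicate 1 but 3 without FOXD1null replicate 2 or any 1 library of 786-O, while the lower count stayed at 4 in all 6 leave-outs. The integrin subunit gene ITGB6, known to bind fibronectin, tenascin-C and latent TGF-beta with the alpha v chain, fell from 1510, 1546 and 1581 counts to 470, 242 and 254 (log2 fold change -2.33, limma adjusted p = 2.3e-04). ITGB3 fell from 2568, 2464 and 2430 to 971, 879 and 954 (-1.41, adjusted p = 2.5e-05). The fibronectin coreceptor SDC4 rose from 7073, 7681 and 7527 to 13585, 12284 and 12096 (0.77, adjusted p = 1.7e-04), and ITGB1, shared by most fibronectin receptors, was not called (-0.14, adjusted p = 0.35). Genes called between the lines differ in the same libraries by design, and no relation of FN1 to these receptors was tested.

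Of 16 other intermediate filament and linker genes tested beside VIM, 1 was called higher (6.25%, against 16.3% of all genes), 6 lower (37.5%, against 17.1%) and 9 not, with a median of -0.20. The lower count was 10 without FOXD1null replicate 1 and 3 without 786-O replicate 1 or FOXD1null replicate 2. KRT80 changed by -0.55 (limma adjusted p = 0.0013) and SYNM, whose product assembles with vimentin, by -0.55 (adjusted p = 8.3e-04). LMNA, the nuclear lamin A/C gene, was the called gene that rose (0.44, adjusted p = 0.0032), and the linker gene PLEC was the most abundant not called (0.23, adjusted p = 0.090), but it was called without FOXD1null replicate 1 (0.32, adjusted p = 3.7e-06). With all 6 libraries each of these 7 lists held calls in both directions, which the list of partners did not without 786-O replicate 1 or 3. Since 16.3% of all genes were called higher and 17.1% lower, calls in both directions do not set these lists apart. Some lists also share genes, such as KRT8 in the epithelial and filament lists, so their counts are not independent.

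**Figure D5:**
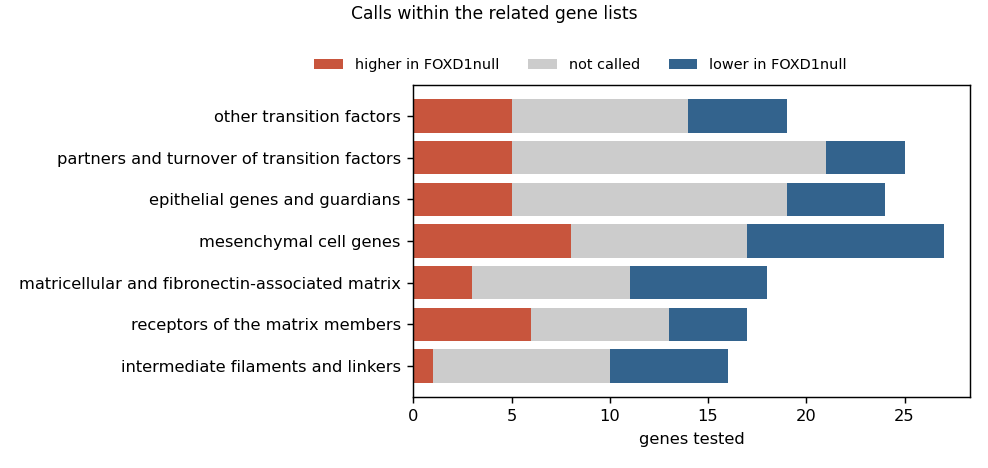
Number of genes tested in each of 7 related lists (horizontal axis), split into those called higher in FOXD1null, not called and called lower (limma, all 6 libraries). Each list holds calls in both directions, from 1 higher and 6 lower among filament genes to 8 higher and 10 lower among mesenchymal genes. Of all genes tested, 16.3% were called higher and 17.1% lower, so calls in both directions do not set these lists apart.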

How the data were processed

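RNA of 3 libraries per line was sequenced in paired reads of 150 bases. Per the authors, Trimmomatic 0.36 trimmed the reads, STAR 2.5.2b placed them on hg38, featureCounts took unique exonic reads per gene, and DESeq2 compared the lines. Of its version, the gene annotation and any use of strand, nothing is stated in the sources used here. The deposited signal is each gene's read count divided by 1 size factor per library, and whole reads were recovered (100% of values within 0.001 of a read), with size factors from 0.896 to 1.10. The authors' group means, log2 fold changes, p-values and other values (differences of means) were deposited and were not used.

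In R 4.3.3, limma 3.58.1 was fitted with trend and no covariates to log2(normalized count + 1) of 16901 genes averaging 10 or more across the 6 libraries. This removed 21 genes. P-values were two-sided, adjusted by the Benjamini-Hochberg method, and called at 0.05. A fold change on this scale understates the change of low genes. The step was tested on simulated counts with known changes. No deviating library was simulated, so that test does not bear on the effect of FOXD1null replicate 1. edgeR 4.0.16 and DESeq2 1.42.0 on recovered reads, other pseudocounts, filters and scalings, a replicate block and leaving out libraries were alternatives. Positions, symbols (for 16747 of 16922 genes) and exon lengths (for RPKM, computed here) came from GENCODE 44, promoter windows from RefSeq. Other steps used Python 3.11.15 with matplotlib 3.10.9, scipy 1.17.1, pandas 2.3.3 and numpy 2.4.6.

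The genes and lists were chosen with earlier results of these data known. Named from each list were the 3 called genes of largest absolute fold change that averaged 100 or more and whose groups did not overlap, and the most abundant gene not called, with every antisense neighbor in the table. CDH1 and CDH2 are exceptions, named after their values were seen.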

Additional observations from a re-analysis of the deposited data

How the results depend on the processing

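Which library was left out changed the results more than the other choices. Leaving out 1 library at a time gave 1798 to 4635 genes called higher and 1823 to 4667 called lower, and among the 9 genes 3 to 6 higher and 1 to 3 lower, with the highest counts without FOXD1null replicate 1 and the lowest over all genes without 786-O replicate 1. Leaving out both 786-O replicate 2 and FOXD1null replicate 1 gave 4658 higher and 4637 lower, and 6 of the 9 genes higher and 3 lower. KRT8, at 0.01 with all libraries, ranged from -0.17 to 0.12 over the single leave-outs and was -0.17 without that pair. VIM, FN1, TNC and THBS1 kept their direction and call under every alternative, and SNAI1 kept its direction but lost its call in 4 of the 6 leave-outs. The causes were not tested.

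The replicate numbers showed no pairing of the samples: deviations of same-numbered libraries from their group means correlated at -0.25, -0.23 and 0.01. With 3 libraries per line these deviations sum to 0, so the correlations constrain each other and cannot exclude a pairing. With the replicate number as a block, 2391 genes were called higher and 2489 lower, and 3 of the 9 genes were higher and 2 lower. Small changes may be missed with 3 libraries per line, and genes near 10 counts, such as CDH1 and THBS1-IT1, rest on few reads.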
